A study of Equus caballus with 6 samples.

Results

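The transcripts described here were the giant genes of the horse testis, defined as genes with an Ensembl horse identifier, an implied length of 9000 bp or more and at least 60 counts summed over the 6 libraries. Implied length is the gene length that the deposited counts and FPKM values (fragments scaled to gene length and to the counts of the library) share between them, which was a whole number of bp, within 0.001 bp, for all 277309 values with a count. The definition used length and total abundance, and neither the stage of a library nor the change between stages entered it. It was met by 120 genes, which were 0.769% of the 15612 Ensembl genes with 60 or more counts. The table held 58724 genes in all, of which 26991 carried Ensembl identifiers and 31733 had been assembled from the reads. Of the Ensembl genes, 5210 had 0 counts and so had no implied length. Every Ensembl gene that had a count and an implied length of 9000 bp or more also reached the minimum of 60 counts.

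The testes came from 6 healthy Mongolian horses at gelding, and each horse gave 1 RNA-Seq library. The immature group (before sexual maturation, BSM1 to BSM3) were 3 colts of 11 to 13 months, and the mature group (after sexual maturation, ASM1 to ASM3) were 3 stallions of 3 to 4 years, so stage and age changed together. The libraries were strand-specific and made from poly(A)-selected RNA of whole tissue, and neither group was treated. Total counts ran from 14015484 to 15910529 in the BSM libraries and from 17195381 to 19721986 in the ASM libraries, so that 3 counts stood for 0.152 to 0.214 CPM (counts scaled to library size). The count and FPKM tables used here paired no Ensembl identifier with a gene name, so the tissue was not checked against cell type markers. The giant genes are told apart by their length in bp, which differed for every gene.

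A very long messenger RNA usually encodes a very large protein. Proteins of this size known from the mammalian testis include the dynein heavy chains that drive the beat of the sperm tail, giant linkers of the cytoskeleton, ubiquitin ligases, chromatin regulators and proteins of the extracellular matrix. The testis before puberty holds mainly Sertoli cells, interstitial cells and early germ cells, and the testis after puberty is filled with spermatocytes and spermatids as well. Which of the giant genes belongs to which of these families was not analysed here.

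The 120 giant genes ran from 9001 to 106731 bp with a median of 11593 bp, against a median of 1473 bp for the Ensembl genes with 60 or more counts. There were 34 genes from 9000 to under 10000 bp, 30 from 10000 to under 12000 bp, 42 from 12000 to under 15000 bp and 14 of 15000 bp or more. The longest gene stood far from the rest, since the next was 23376 bp. At the edge of the definition, the longest gene left out had 8998 bp and 1617 counts, and the shortest gene kept had 9001 bp and 3278 counts. The lowest sum of counts among the giant genes was 60, in a gene of 12208 bp, and the next lowest was 96. Each giant gene had at least 2 counts in every library, and 112 of them had 10 or more in every library. All 120 passed the filter on low counts, so no giant gene was lost before the test. The median giant gene had 1083 counts per BSM library and 827 per ASM library, against 324 and 306 for the Ensembl genes with 60 or more counts. The part of length in this difference was not tested.

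The level per unit of length was read from FPKM. The median FPKM of the giant genes was 6.98, 6.00 and 6.86 in the BSM libraries, each in the order 1 to 3, and 3.95, 3.68 and 3.82 in the ASM libraries. The groups did not overlap in FPKM, with 6.61 ± 0.538 (SD, n = 3) in immature and 3.82 ± 0.137 (SD, n = 3) in mature testis. On the scale of log2 CPM after TMM scaling, which is not divided by length, they did overlap. The median giant gene stood at 6.11, 5.70 and 5.89 in the BSM and at 5.71, 5.71 and 5.77 in the ASM libraries. BSM2 thus lay below every ASM library. With FPKM computed from TMM library sizes the groups did not overlap. The medians were then 6.41, 5.01 and 5.68 in the BSM and 4.74, 4.37 and 4.39 in the ASM libraries. The median over the Ensembl genes with 60 or more counts was also lower in mature testis, at 14.1 ± 0.486 against 10.4 ± 0.0202 FPKM (SD, n = 3 each). In these bulk samples, fewer cells of a type and less RNA per cell cannot be told apart, here and in every comparison that follows. A mean FPKM over 1 was reached by 79 giant genes in both stages, by 10 in immature testis only, by 6 in mature testis only and by 25 in neither. Levels over 10 FPKM were reached by 41 giant genes in immature and 30 in mature testis. The range within a library was wide, with the lowest gene between 0.0095 and 0.016 FPKM in the BSM libraries and the highest between 56.6 and 78.8 FPKM over all 6 libraries.

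**Figure D1:**
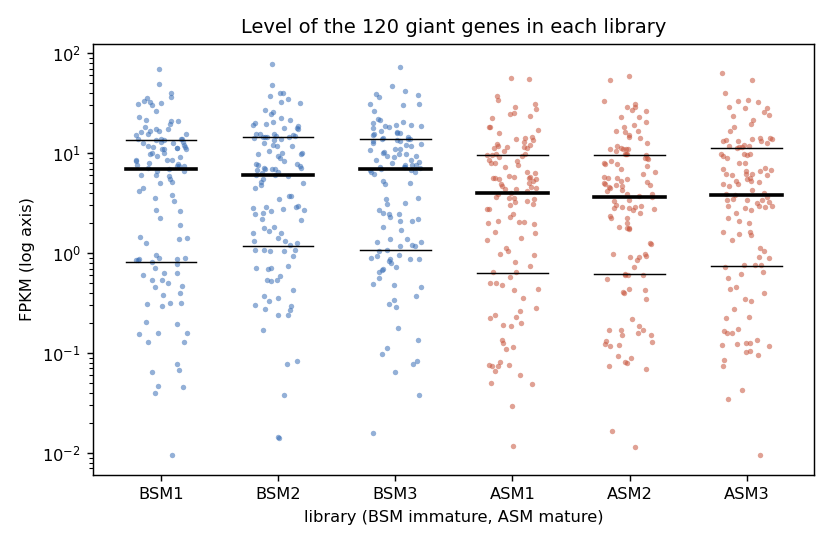
FPKM (log axis) of each of the 120 giant genes in each library, as points, with the median as a thick line and the quartiles as thin lines. The 3 BSM medians lie between 6.00 and 6.98 FPKM and the 3 ASM medians between 3.68 and 3.95 FPKM.

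The giant genes took a smaller part of the library after maturation. They held 1.36%, 1.35% and 1.37% of all gene counts in the BSM and 0.990%, 0.963% and 1.08% in the ASM libraries. Every ASM library thus lay below every BSM library, with 1.36 ± 0.0106% against 1.01 ± 0.0604% (SD, n = 3 each). A share of counts is scaled by library size. On that scale the median log2 fold change, mature over immature, was -0.40 for all genes tested and -0.67 for the Ensembl genes. Whether the fall in share was particular to the giant genes was not tested. The fall in the sum was made of opposite movements. Genes called lower in mature testis by the test described next held 0.810 ± 0.0298% of the counts in immature and 0.249 ± 0.0181% in mature testis. Genes called higher held 0.202 ± 0.0192% and 0.511 ± 0.0287%, and those not called held 0.350 ± 0.00615% and 0.249 ± 0.0148% (SD, n = 3 in each group). The calls were made on the same libraries, so these last 3 splits are descriptions. The 5 giant genes with the most counts over the 6 libraries held from 17.7% to 22.6% of the giant gene counts, and the share of the rest was also lower in mature testis, at 0.824% against 1.07% of all counts.

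**Figure D2:**
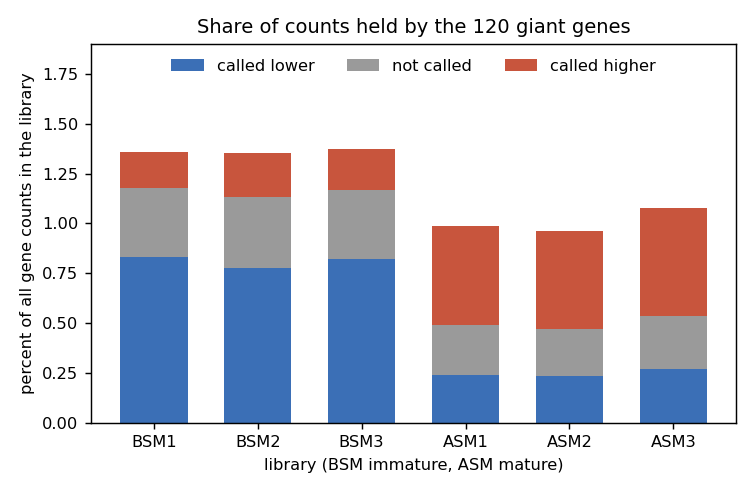
Percent of all gene counts in each library held by the 120 giant genes, stacked by whether the gene was called lower, not called or called higher in mature testis. The stacks reach 1.35% to 1.37% in the BSM libraries and 0.963% to 1.08% in the ASM libraries, and the part held by genes called higher is larger in every ASM library than in any BSM library.

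Which giant genes changed between the stages was tested with the quasi-likelihood test of edgeR, fitted over all genes of the table, and a gene was called at a Benjamini-Hochberg adjusted p under 0.05. In mature testis 33 giant genes (27.5%) were higher, 58 (48.3%) were lower and 29 were not called. Among all 32954 genes tested, 41.4% were called higher and 36.0% lower, and among the 15606 Ensembl genes tested, 34.8% were called higher and 41.5% lower. The share of lower giant genes stood above both of these backgrounds and the share of higher ones below both, and no test of that difference was made. With a change of at least 2-fold asked for as well, 26 giant genes (21.7%) were higher and 38 (31.7%) lower, against 27.5% and 31.5% of the Ensembl genes. The share of strongly lower giant genes was therefore near its background. The 3 libraries of a stage did not overlap with those of the other in log2 CPM for 35 giant genes (29.2%) with mature above and for 60 (50%) with mature below, against 37.0% and 44.0% of the Ensembl genes. No called giant gene overlapped between stages on that scale, and 4 that were not called did not overlap either.

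The median log2 fold change of the giant genes, mature over immature, was -0.52, against -0.21 for the Ensembl genes and 0.06 for all genes tested. In size alone the giant genes moved about as far as other Ensembl genes, with a median absolute log2 fold change of 1.18 against 1.30. These values depend on how libraries are scaled. TMM scaling gave factors of 1.10 to 1.22 to the BSM and 0.840 to 0.875 to the ASM libraries, and it set the median over all genes 0.46 higher on the log2 scale than scaling by library size did. By library size alone, the medians were -1.001 for the giant genes and -0.67 for the Ensembl genes, so the giant genes lay below the Ensembl genes by a similar amount in both, -0.30 with TMM and -0.33 without. By library size, 26 giant genes were called higher and 72 lower. All 58 lower calls were kept and 26 of the 33 higher calls were kept, none of the 33 was called lower, and 14 genes that had not been called were called lower. FPKM is scaled by library size, so FPKM values and the fold changes below differ by this shift.

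**Figure D3:**
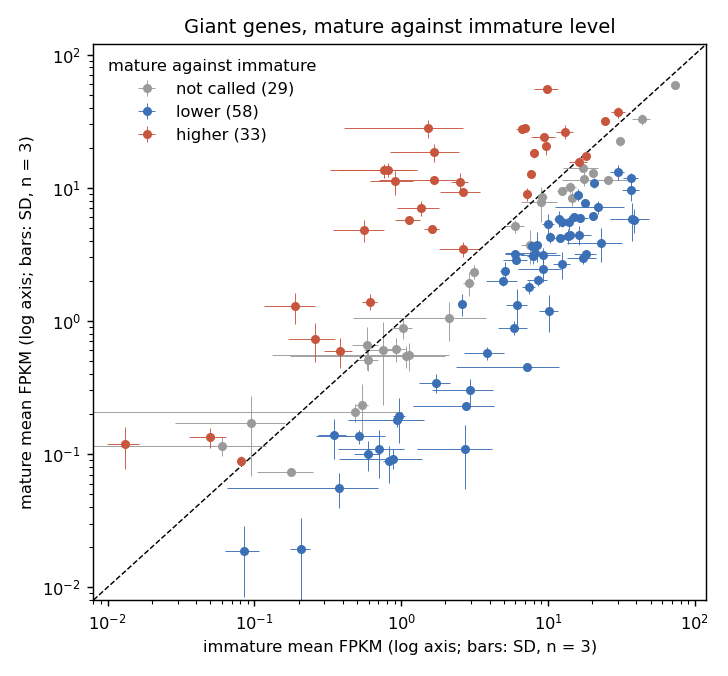
Mean FPKM in mature against immature testis for each of the 120 giant genes (both axes log, bars SD, n = 3, running off the log axis where the SD passes the mean), coloured by the edgeR call. The dashed line marks equal FPKM. The 58 genes called lower lie below it, and 2 of the 33 called higher lie just below it because the call was made after TMM scaling.

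The genes called higher rose by log2 fold changes of 0.37 to 4.67 with a median of 2.04. In 9 of them the log2 fold change was 3 or more, in 8 it was from 2 to under 3, in 9 from 1 to under 2 and in 7 under 1. The 9 genes with the steepest rise measured 10515 to 14582 bp, and all 9 had an immature mean of 1.66 FPKM or less. The members described singly beside the 4 given by identifier, the longest and the most abundant ones were picked after their values were seen.

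The steepest rise was that of ENSECAG00000002831, of 13030 bp. Its level was 0.535, 2.74 and 1.30 FPKM in the BSM libraries and 24.5, 26.6 and 32.7 FPKM in the ASM libraries. The lowest mature library stood far above the highest immature one, although the immature libraries themselves differed 5.13-fold. The log2 fold change was 4.67 (SE 0.53), which is 25.5-fold, with an adjusted p of 0.000155 in edgeR. Without BSM2 the rise was 41.8-fold (log2 fold change 5.38, SE 0.38), and without BSM1 the log2 fold change was 4.11 (SE 0.36). A similar course was seen in the genes of 14284 and 11368 bp. The former had 0.313, 0.924 and 1.05 FPKM in the BSM and 14.5, 14.3 and 11.6 FPKM in the ASM libraries, a log2 fold change of 4.63 (SE 0.41, adjusted p = 4.98e-05 in edgeR). The latter had 0.309, 1.27 and 0.841 FPKM and then 11.99, 15.2 and 13.8 FPKM, a log2 fold change of 4.56 (SE 0.44, adjusted p = 7.53e-05 in edgeR). In all 3 genes BSM1 was the lowest library and no mature library came near an immature one.

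The other 6 steep risers covered a wide range of levels. The gene of 13217 bp went from 0.818, 2.46 and 1.71 FPKM to 15.9, 18.2 and 21.6 FPKM, and the gene of 12973 bp from 0.626, 1.21 and 0.880 FPKM to 9.90, 9.78 and 13.8 FPKM. Their log2 fold changes were 3.95 (SE 0.36) and 4.08 (SE 0.25). The gene of 12136 bp reached a similar level, with 0.890, 2.72 and 1.37 FPKM in the BSM and 11.9, 10.9 and 11.7 FPKM in the ASM libraries. Lower levels were found in the gene of 14582 bp, with 0.316, 0.707 and 0.641 FPKM before and 5.22, 3.76 and 5.45 FPKM after maturation. Lower still was the gene of 10515 bp, with 0.158, 0.269 and 0.136 FPKM before and 1.37, 0.921 and 1.56 FPKM after. The faintest was the gene of 13476 bp, which had 2, 3 and 3 counts in the BSM libraries and 20, 32 and 37 counts in the ASM libraries, too few in immature testis for its fold to be given. The stages did not overlap in any of these 6 genes, and their adjusted p ranged from 1.51e-05 to 0.000304 in edgeR.

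Some genes at a middle level in immature testis rose to be among the more abundant ones. The gene of 9452 bp had 7.97, 11.7 and 9.90 FPKM in the BSM and 55.6, 54.5 and 54.1 FPKM in the ASM libraries, which made it the second most abundant giant gene of mature testis. It rose from 9.87 ± 1.89 to 54.7 ± 0.733 FPKM (SD, n = 3 each), a log2 fold change of 2.93 (SE 0.16, adjusted p = 1.11e-05 in edgeR), and its mature libraries lay close together. The genes of 9853 and 9333 bp also rose, to a lower level. The first had 6.68, 6.98 and 7.18 FPKM and then 28.8, 27.2 and 28.4 FPKM, and the second had 5.99, 7.01 and 6.82 FPKM and then 25.4, 28.8 and 28.9 FPKM. Both rose in each mature library above every immature one, with log2 fold changes of 2.47 (SE 0.12) and 2.52 (SE 0.12) and an adjusted p of 9.91e-06 in edgeR for each.

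At the other end, 7 higher calls had a log2 fold change under 1, and of these the gene of 9293 bp alone kept its call with scaling by library size (log2 fold change 0.82 with TMM and 0.36 by library size, adjusted p = 0.0236 in edgeR for the latter). The gene of 10898 bp, the third most abundant in mature testis, had 26.6, 32.8 and 30.8 FPKM in the BSM and 37.2, 33.3 and 40.0 FPKM in the ASM libraries. The lowest mature library stood just above the highest immature one. Its log2 fold change was 0.75 (SE 0.13, adjusted p = 0.0011 in edgeR) and became 0.29 (adjusted p = 0.0883) with scaling by library size. The genes of 14592 and 9783 bp had log2 fold changes of 0.41 and 0.37 with TMM and -0.05 and -0.08 by library size, and their FPKM overlapped between stages. In all, 5 of the 33 higher calls, in genes of 106731, 14994, 14592, 12146 and 9783 bp, were of genes whose FPKM overlapped.

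The genes called lower fell by log2 fold changes of -0.42 to -4.21 with a median of -1.43. The change was -3 or below in 3 genes, between -2 and -3 in 15, between -1 and -2 in 20 and above -1 in 20. Steep falls were thus fewer than steep rises among the giant genes, at 3 against 9, while among the Ensembl genes tested 4.58% were lower and 10.8% higher by as much.

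The steepest fall was that of ENSECAG00000025065, of 9605 bp. It had 4.201, 1.32 and 2.67 FPKM in the BSM libraries and 0.0484, 0.153 and 0.127 FPKM in the ASM libraries, the latter resting on 9, 29 and 21 counts. All mature libraries were far below all immature ones, among which BSM1 was the highest. The log2 fold change was -4.21 (SE 0.58), a level 18.5-fold lower, with an adjusted p of 0.000358 in edgeR. The gene of 10752 bp had 12.1, 2.53 and 6.85 FPKM in the BSM and 0.481, 0.424 and 0.438 FPKM in the ASM libraries. The gene of 10160 bp had 4.50, 1.65 and 2.08 FPKM and then 0.239, 0.220 and 0.229 FPKM. In both the mature libraries lay close together and the immature ones spread in the same order, with BSM1 highest and BSM2 lowest. Their log2 fold changes were -3.57 (SE 0.55, adjusted p = 0.000643) and -3.15 (SE 0.44, adjusted p = 0.000387) in edgeR.

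The genes that fell included abundant ones. Of the 58 lower genes, 26 had an immature mean over 10 FPKM, against 41 of all 120 giant genes and 10 of the 29 not called, and 16 of the 26 fell by 2-fold or more. The calls were made on the same immature libraries, so these counts are descriptions. The gene of 13835 bp, the third most abundant of immature testis, had 35.7, 37.2 and 42.2 FPKM in the BSM and 4.99, 5.16 and 7.10 FPKM in the ASM libraries. It fell from 38.3 ± 3.41 to 5.75 ± 1.18 FPKM (SD, n = 3 each), a log2 fold change of -2.29 (SE 0.17, adjusted p = 2.41e-05 in edgeR), and its stages lay far apart. The gene of 11517 bp fell to the same level from immature libraries that were further apart, with 49.0, 26.8 and 36.5 FPKM before and 4.61, 7.89 and 4.89 FPKM after. Its log2 fold change was -2.25 (SE 0.31, adjusted p = 0.000391 in edgeR). The gene of 13361 bp fell less, from 31.8, 40.1 and 38.4 FPKM to 11.1, 11.1 and 13.1 FPKM, and was the most abundant of those that fell 2-fold or more in mature testis (log2 fold change -1.18, SE 0.13, adjusted p = 0.000135 in edgeR). No library of either stage overlapped with the other in these genes.

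The most abundant giant gene was the same in every library. The gene of 9298 bp had 69.7, 78.8 and 71.9 FPKM in the BSM and 56.6, 58.7 and 63.3 FPKM in the ASM libraries. In FPKM its mature libraries all lay below the immature ones, with 73.5 ± 4.71 against 59.5 ± 3.43 (SD, n = 3 each). After TMM scaling the log2 fold change was 0.15 (SE 0.13) and was not called (adjusted p = 0.295 in edgeR), so its direction depended on the scaling. By library size it was -0.30 (adjusted p = 0.0556), and with DESeq2 0.31 (adjusted p = 0.0479). The second most abundant in immature testis was the gene of 13922 bp, with 36.7, 47.7 and 46.5 FPKM in the BSM and 34.4, 29.0 and 34.3 FPKM in the ASM libraries. Its log2 fold change was 0.04 (SE 0.14, adjusted p = 0.815 in edgeR) and became -0.42 (adjusted p = 0.0346) by library size.

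The longest giant genes were mostly lower in mature testis. Of the 14 genes of 15000 bp or more, 10 were called lower, 1 higher and 3 were not called, and the mean FPKM was lower in mature testis in 13 of the 14 (92.9%). That share was 64.3% to 73.3% in the other classes of giant genes and 62.3% to 68.1% in the Ensembl classes from 150 to under 9000 bp. It was 82.3% in the Ensembl genes under 150 bp. FPKM is scaled by library size in all of these. Their median log2 fold change was -1.04, against -0.49 for the 42 genes from 12000 to under 15000 bp, -0.68 for the 30 from 10000 to under 12000 bp and -0.01 for the 34 from 9000 to under 10000 bp. Higher and lower calls numbered 15 and 19, 6 and 16, and 11 and 13 in these 3 classes. The order was therefore not monotonic in length, and with 14 genes the last class is small. Of the shorter Ensembl genes, those under 150 bp had the lowest median of any class, -1.42 over 153 genes tested, with 16.3% called higher and 58.2% lower. The medians of the others were -0.18 from 150 to under 1000 bp, -0.19 from 1000 to under 2000 bp, -0.17 from 2000 to under 4000 bp, -0.33 from 4000 to under 6000 bp and -0.24 from 6000 to under 9000 bp. Higher and lower calls made up 35.7% and 40.0% in the class from 150 bp and 32.3% and 44.0% in that from 6000 bp.

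The minimum of 60 counts removed no giant gene with a count, but among shorter Ensembl genes it removed those at low FPKM. Its part in the difference in median FPKM between shorter and giant genes was not tested. The median FPKM in immature testis was 22.1 for the Ensembl genes from 150 to under 1000 bp, 10.8 from 6000 to under 9000 bp, 10.1 in the shortest class of giant genes, 6.67 in the next, 1.89 from 12000 to under 15000 bp and 3.81 at 15000 bp or more. In mature testis the same classes had 17.8, 6.15, 7.36, 2.97, 3.56 and 0.753 FPKM. The class from 12000 to under 15000 bp was the only one of these whose median was higher in mature testis, and it held 7 of the 9 steepest risers.

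**Figure D4:**
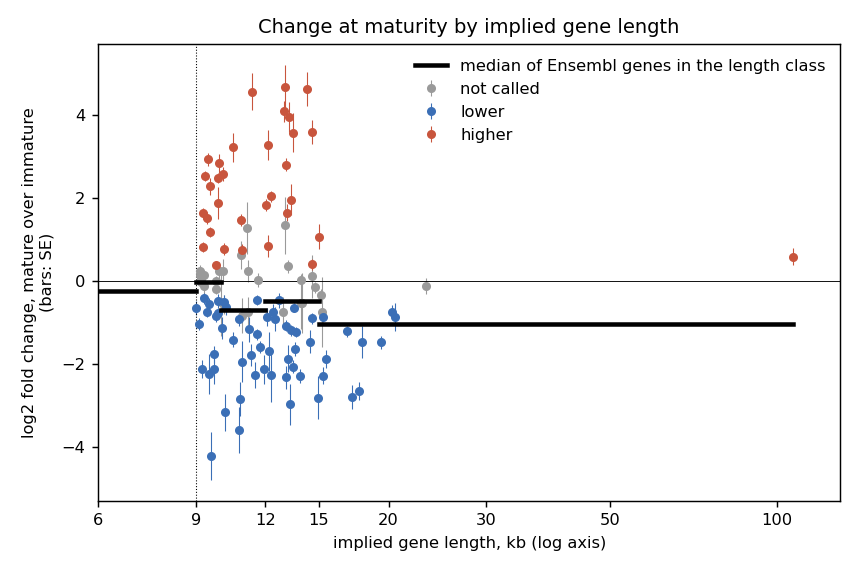
Log2 fold change, mature over immature (bars SE), of each of the 120 giant genes against its implied length in kb (log axis), coloured by the edgeR call, with black lines for the median of all Ensembl genes in each length class from 6 kb up. The dotted line marks 9 kb. The medians are -0.24 below it and -0.01, -0.68, -0.49 and -1.04 in the 4 classes of giant genes.

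The longest gene of all, ENSECAG00000012544, of 106731 bp, varied little between libraries. Its level was 0.0773, 0.0824 and 0.0822 FPKM in the BSM libraries and 0.0814, 0.0884 and 0.0964 FPKM in the ASM libraries, from 123 to 186 counts per library. The stages overlapped in FPKM. After TMM scaling its log2 fold change was 0.59 (SE 0.19, adjusted p = 0.0228 in edgeR), and by library size it was 0.14 (adjusted p = 0.54). The call was also lost without BSM1 (adjusted p = 0.109), without BSM3 (adjusted p = 0.128) and with no filter on low counts (adjusted p = 0.0770) in edgeR.

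The next 4 in length were not alike. The gene of 23376 bp had 0.774, 1.05 and 0.928 FPKM in the BSM and 0.4997, 0.601 and 0.754 FPKM in the ASM libraries and was not called (log2 fold change -0.11, SE 0.19, adjusted p = 0.607 in edgeR). ENSECAG00000020638, of 20561 bp, was the longest gene called lower. It had 0.299, 0.431 and 0.309 FPKM in the BSM and 0.191, 0.118 and 0.105 FPKM in the ASM libraries, a log2 fold change of -0.86 (SE 0.34, adjusted p = 0.0457 in edgeR). Its stages did not overlap, but the call was near the threshold and was lost without BSM2 (adjusted p = 0.115), without ASM2 (adjusted p = 0.187) and without ASM3 (adjusted p = 0.204), and with 5 other settings. These were DESeq2 (adjusted p = 0.102), edgeR with DESeq2 size factors (0.0812), at least 10 counts in every library (0.0506) or Ensembl genes only (0.0534), and limma on FPKM (0.0751).

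The other two were abundant. The gene of 20316 bp had 32.1, 26.0 and 31.2 FPKM in the BSM and 13.98, 11.1 and 14.1 FPKM in the ASM libraries (log2 fold change -0.74, SE 0.17, adjusted p = 0.00426 in edgeR). The gene of 19372 bp had 31.1, 40.2 and 38.9 FPKM and then 8.58, 8.67 and 11.6 FPKM (log2 fold change -1.47, SE 0.16, adjusted p = 0.000122 in edgeR). Both were lower in every mature library than in any immature one. The steepest falls among the 14 genes of 15000 bp or more were those of the genes of 17690 bp, with 9.29, 9.38 and 11.8 FPKM and then 0.985, 0.977 and 1.61 FPKM, and of 17184 bp, with 0.852, 0.746 and 0.893 FPKM and then 0.0662, 0.0797 and 0.118 FPKM. Their levels were 6.24-fold and 6.91-fold lower, and the stages of neither gene overlapped.

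The immature libraries differed among themselves more than the mature ones. The highest FPKM over the lowest within a stage had a median of 1.36 in immature and 1.27 in mature testis for the giant genes, and of 1.41 and 1.27 for the Ensembl genes with 60 or more counts. The spread was wider in immature testis in 70 giant genes (58.3%), against 61.7% of the Ensembl genes. A spread of 5-fold or more was found in 7 giant genes within immature testis (5.83%, against 6.22% of the Ensembl genes) and in 0 within mature testis (against 2.80% of the Ensembl genes). The order of the libraries went with the direction of change. Among the 33 giant genes called higher, BSM1 was the lowest immature library in log2 CPM in 20 (60.6%) and BSM2 the highest in 17 (51.5%), against 53.4% and 55.6% of the Ensembl genes called higher. Among the 58 called lower, BSM1 was the highest in 37 (63.8%) and BSM2 the lowest in 36 (62.1%), against 56.2% and 55.8%. In FPKM the order differed somewhat, with BSM1 lowest in 23 of the 33 higher genes (69.7%, against 68.6% of the Ensembl genes called higher) and highest in 27 of the 58 lower ones (46.6%, against 39.4%). On both scales these shares were near those of the Ensembl genes, and the part of library differences in the results was not tested.

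In 5 of the 7 genes with the widest immature spread, the stages overlapped and no change was called. The gene of 9990 bp had 0.0640, 1.79 and 1.38 FPKM in the BSM libraries, a 28.0-fold spread, and 0.435, 0.553 and 0.640 FPKM in the ASM libraries. The gene of 15212 bp had 0.0462, 1.07 and 0.342 FPKM and then 0.224, 0.170 and 0.226 FPKM, and the gene of 13958 bp had 0.156, 2.14 and 1.08 FPKM and then 0.652, 0.607 and 0.400 FPKM. The gene of 13901 bp followed with 0.400, 3.69 and 2.28 FPKM and then 1.42, 0.970 and 0.757 FPKM. In these 4 genes BSM1 lay below and BSM2 and BSM3 above, with all mature libraries between them, and the adjusted p ranged from 0.435 to 0.599 in edgeR. Without BSM1, all 4 were called lower in mature testis, with log2 fold changes of -1.22, -1.46, -1.21 and -1.18 and an adjusted p of 0.00397, 0.0217, 0.0136 and 0.00933 in edgeR. Without BSM2 the same log2 fold changes were positive, at 0.08, 0.57, 0.33 and 0.13, and none was called, so the direction in these genes turned on which immature library was left out. The gene of 13050 bp had the opposite order, with 0.127, 0.0144 and 0.0383 FPKM in the BSM and 0.127, 0.0933 and 0.125 FPKM in the ASM libraries (log2 fold change 1.34, SE 0.69, adjusted p = 0.109 in edgeR), and without BSM1 it was called higher, at 2.46 (adjusted p = 0.00483). Of the other two, ENSECAG00000002831 had the steepest rise of the giant genes, and the gene of 12307 bp was lower in mature testis, with 0.130, 0.276 and 0.730 FPKM and then 0.0504, 0.0742 and 0.0425 FPKM (log2 fold change -2.26, SE 0.64, adjusted p = 0.0124 in edgeR). That call was lost without ASM1 (adjusted p = 0.0536) or ASM3 (adjusted p = 0.0578), and without BSM3 the log2 fold change was -1.55 (adjusted p = 0.0338).

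**Figure D5:**
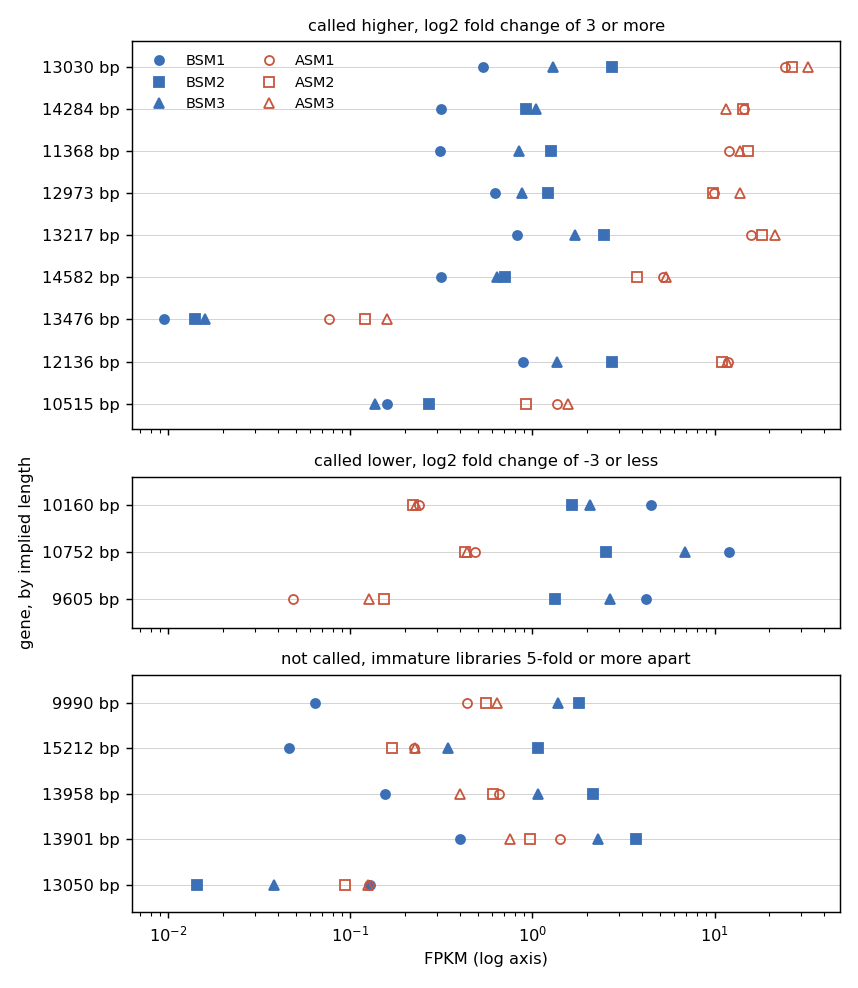
FPKM (log axis) in each library for the 9 giant genes with a log2 fold change of 3 or more, the 3 with -3 or less, and the 5 that were not called and whose immature libraries lay 5-fold or more apart. Filled symbols are BSM and open symbols ASM libraries. The stages are apart in the upper and middle panels, and in the lower panel BSM1 lies at one end of the immature libraries in each gene, below in 4 and above in the gene of 13050 bp.

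Leaving out 1 library at a time, 29 of the 33 higher and 45 of the 58 lower calls were kept in every fit. No called gene changed direction. The higher calls that were lost were lost without BSM1 (3 genes) or BSM3 (4 genes), and the lower calls without ASM1 (10 genes), ASM2 (12 genes), ASM3 (9 genes) or BSM2 (3 genes). Whether reads were assigned to genes by strand is not given in the sources used here, so the values of giant genes that overlap another gene or share sequence with a close relative are uncertain.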

How the data were processed

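Testis RNA of 6 Mongolian horses was sequenced as paired-end, strand-specific poly(A) libraries, 3 immature and 3 mature. Per the labels, the submitters' processing notes name Bowtie2 2.2.3, TopHat2 2.0.12 and HTSeq 0.6.1. The authors aligned reads to the Ensembl horse genome, counted reads per gene and deposited raw counts and FPKM computed from those counts and the gene length. The Ensembl release and genome build are not given in the sources used here. Implied length was the count divided by FPKM and by the library total, in bp, as the median over libraries with a count. Mature columns and sample titles carry different names, so the mature columns were used as 3 replicates in no order of animals.

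Counts of all 58724 genes were fitted with edgeR 4.0.16 in R 4.3.3 (TMM, filterByExpr, quasi-likelihood test, stage as sole factor). The resulting p-values were adjusted by Benjamini-Hochberg over all 32954 genes tested and are two-sided. The SE of a log2 fold change was its size divided by the square root of F. Log2 CPM used a prior count of 2. Horses are the replicates. The count models were tested on simulated data in which few genes changed, as many up as down. Scaling where most genes change, as here, was not part of that simulation. Alternatives were DESeq2 1.42.0, DESeq2 size factors, library size alone, other filters, limma 3.58.1 on log2(FPKM + 1), other length and count minimums, and leaving out each library.

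The giant genes, length classes and tests were chosen with earlier results of these data known. Identifiers were given for the gene with the largest change and the longest gene in each direction, among called genes whose stages did not overlap in log2 CPM and whose mean log2 CPM was above 1. The 5 longest genes and the 3 most abundant of each stage were described by length. Lists of giant genes by family and of cell type markers needed gene names and could not be applied, since the tables used here do not pair Ensembl horse identifiers with names. For the same reason no sequence is printed.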

Additional observations from a re-analysis of the deposited data

How the results depend on the processing

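The counts of giant genes called higher and lower kept within 1.5 times 33 and 58, and the median log2 fold change stayed negative, under DESeq2, its size factors, the other filters, limma and each fit without 1 library. Calls ranged from 29 to 35 higher and from 46 to 64 lower, and the median from -0.69 to -0.37, over the leave-one-out fits. DESeq2 called 35 higher and 49 lower, and limma called 24 and 65 of the 115 it tested. The giant gene calls of these settings were not set against the share of Ensembl genes called. Whether the share of lower giant genes stayed above that background was therefore not tested. With library size alone the median moved to -1.001, which follows from the 0.46 shift of all genes. A minimum length of 12000 bp gave 16 higher and 29 lower with a median of -0.74, one of 7000 bp gave 60 and 118, and asking for a 2-fold change left 38 lower. The counts moved by construction, since genes were taken out or added, and the cause of the lower median from 12000 bp was not tested. The share of counts became 1.51% in immature and 1.14% in mature testis as a part of the Ensembl counts, 1.07% and 0.824% without the 5 genes with the most counts, 0.659% and 0.426% from 12000 bp, and 3.07% and 2.31% from 7000 bp. The median FPKM became 5.70 and 4.50 with TMM library sizes and 7.69 and 4.96 with at least 600 counts. In each of these the mature value was the lower one. The direction of the median stayed the same in these settings, while the log2 fold changes of single genes, those of 9298, 14592 and 9783 bp among them, turned negative with library size alone. No paired analysis was possible because the stages are different horses, and the mature columns, though numbered 1 to 3, cannot be traced to the mature samples, whose titles carry other numbers. Depth limits the genes near 3 counts, such as that of 13476 bp, and 3 libraries per stage limit small changes. With no gene names, the lists and markers could not be tried.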

Other observations

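The table also held 201 genes of 9000 bp or more that had been assembled from the reads and carry no Ensembl identifier. All 201 were tested in the same edgeR fit, and 54 were called higher and 116 lower in mature testis. Their median log2 fold change was -1.23, with a median FPKM of 1.49 in immature and 0.766 in mature testis, and the longest measured 24406 bp. Among all assembled genes tested, 47.4% were called higher and 31.1% lower, with a median log2 fold change of 0.74. The long assembled genes thus had a lower median than assembled genes as a whole, as the giant Ensembl genes had against theirs, and no test of either difference was made.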
